A study of Rattus norvegicus with 30 samples.

Results

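Zinc handling was followed through 10 genes of rat hippocampal cultures. They are the metallothionein genes Mt1 and Mt3, the Mt1 copy Mt1-ps3, the zinc sensor gene Mtf1, and the zinc exporter genes Slc30a1, Slc30a2, Slc30a3, Slc30a4, Slc30a9 and Slc30a10. They were chosen by symbol, and all 10 were found among the 21993 genes listed in the deposited tables.

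The cells were hippocampal neurons of Wistar rat embryos, taken at embryonic day 18 and grown for 7 days. All 10 groups carried the same unmodified genotype. At both 4 and 24 h, cultures held dimethyl fumarate (DMF) at 30 µM, its metabolite monomethyl fumarate (MMF) at 30 µM, cannabidiol (CBD, a compound of the Cannabis plant) at 6 µM, or a vehicle alone. Both fumarates were given in dimethyl sulfoxide (DMSO) and CBD in ethanol (EtOH), with either vehicle at 0.2% of the medium. Poly(A)+ RNA of 3 repeats of each group was sequenced, which made 30 libraries with replicate numbers 1 to 3. DMF and MMF were thus compared with the same DMSO libraries. P-values here measure the spread between these repeats, for which the labels name no animals.

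Metallothioneins are small cysteine-rich proteins that bind zinc and copper in the cytosol, and their genes are among the best known to answer free zinc. MTF1 is a transcription factor that binds metal response elements when zinc rises. SLC30 proteins (ZnT) move zinc out of the cytosol, either across the cell surface or into vesicles and organelles. In the hippocampus, ZnT3 loads zinc into the synaptic vesicles of glutamatergic neurons.

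On mRatBN7.2, the assembly used for the deposited tables, Mt1 (chr19:10826032-10827049) and Mt3 (chr19:10848755-10850158) lie in a cluster with Mt2A and Mt4 that spans 39.9 kb. Mt1-ps3 lies elsewhere, at chr17:74786654-74787135, and is a pseudogene in RefSeq. The exporter genes that turned out to carry the results are Slc30a1 (chr13:103491037-103494910) and Slc30a2 (chr5:146559733-146571956). The others are Mtf1 (chr5:137062376-137107136), Slc30a3 (chr6:25275528-25284720), Slc30a4 (chr3:109753273-109775306), Slc30a9 (chr14:40816290-40870929) and Slc30a10 (chr13:96998143-97009103). Mt1-ps3 is named as a copy of Mt1, and its reads were 11.8 to 23.2% of those of Mt1 over the 30 libraries, with a median of 14.7%. How the counting treated reads that fit both genes is not given in the sources used here, so the split between the 2 is uncertain.

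The 250 bases before the RefSeq start of 4 members are shown, since these genes did or did not change with CBD and metal response elements are where MTF1 binds. Sequences are from RefSeq (GRCr8), each on the strand of its gene, and capitals mark the core of a metal response element. Cores were searched on both strands as TGCACNC and TGCGCNC, and one on the other strand shows here as its reverse complement.
Mt1 (chr19:10832976-10833225, minus strand): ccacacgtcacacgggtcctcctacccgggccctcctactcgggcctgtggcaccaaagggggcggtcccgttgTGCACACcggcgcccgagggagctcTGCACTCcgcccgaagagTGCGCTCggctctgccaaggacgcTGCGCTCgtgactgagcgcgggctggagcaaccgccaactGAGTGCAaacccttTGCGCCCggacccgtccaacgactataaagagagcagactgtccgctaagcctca
Slc30a1 (chr13:106021769-106022018, plus strand): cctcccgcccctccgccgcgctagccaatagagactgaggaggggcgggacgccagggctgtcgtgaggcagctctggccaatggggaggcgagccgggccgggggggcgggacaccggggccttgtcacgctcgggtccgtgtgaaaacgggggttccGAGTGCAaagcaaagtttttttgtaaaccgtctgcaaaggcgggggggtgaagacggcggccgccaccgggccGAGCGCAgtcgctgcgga
Slc30a2, first start (chr5:151843201-151843450, plus strand): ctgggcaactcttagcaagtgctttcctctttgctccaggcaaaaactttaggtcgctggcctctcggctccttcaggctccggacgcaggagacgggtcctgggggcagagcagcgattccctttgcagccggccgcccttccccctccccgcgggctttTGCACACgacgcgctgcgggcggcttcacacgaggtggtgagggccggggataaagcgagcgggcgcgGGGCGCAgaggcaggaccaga
Mt3 (chr19:10856081-10856330, minus strand): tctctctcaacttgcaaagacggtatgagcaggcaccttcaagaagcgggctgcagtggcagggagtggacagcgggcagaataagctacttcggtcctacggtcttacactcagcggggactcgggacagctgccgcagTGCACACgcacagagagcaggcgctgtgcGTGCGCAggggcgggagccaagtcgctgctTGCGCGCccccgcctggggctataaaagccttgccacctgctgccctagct

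A promoter window was at hand for 8 of the 10 members. The Mt1 window held 6 cores, against 9 of 33469 windows (0.0269%) with 6 or more. The Mt3 window held 3, and 1.17% of windows held 3 or more. Windows of Slc30a1, Slc30a4 and Mtf1 and the first start of Slc30a2 held 2 each, which 4.9% of windows reached, while the second start of Slc30a2 and the windows of Slc30a3 and Slc30a9 held 0. At least 1 core was in 20.6% of windows. No cores overlapped. The antioxidant response element core, TGACNNNGC, was found once in the windows of Mt1 and Slc30a1 and 2 times in that of Mtf1, apart from the metal cores. At least 1 such core was in 10.1% of windows and at least 2 were in 0.627%. Such a match only describes the letters, and a window without one says nothing about the factor.

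**Figure D1:**
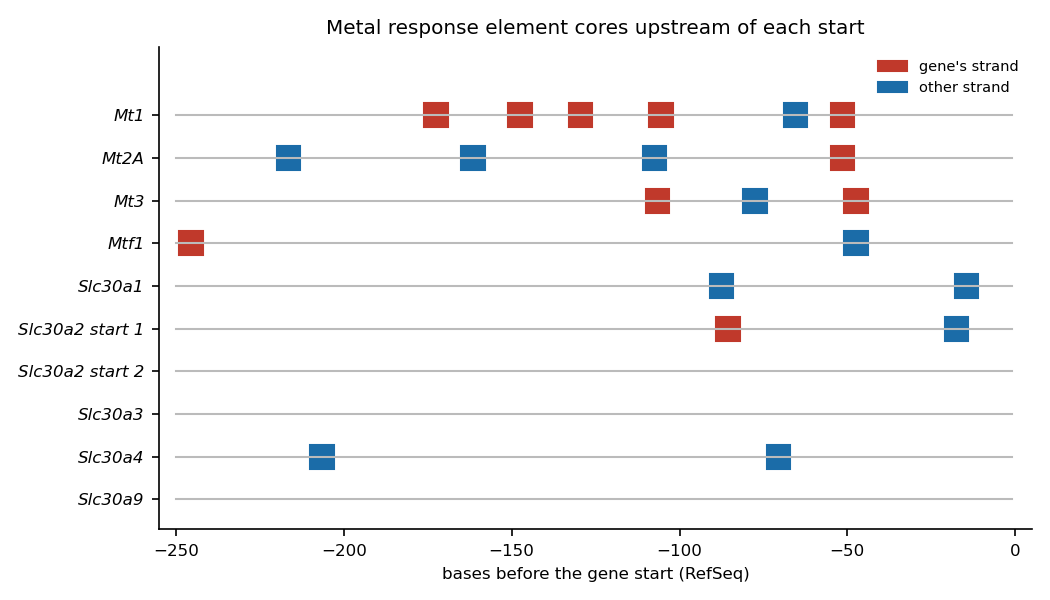
Position of each metal response element core in the 250 bases before the RefSeq start of 8 members and of Mt2A, in bases before the start, with red for cores on the strand of the gene and blue for cores on the other strand. Mt1 holds 6 cores, Mt2A 4 and Mt3 3, while Slc30a3, Slc30a9 and the second start of Slc30a2 hold 0.

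Between 15108132 and 25367834 reads lay on genes per library. All 10 neuron markers and all 10 astrocyte markers had reads in every library, with summed reads scaled to library size (counts per 1e+06 reads, CPM) of 3463 to 4768 and 2263 to 5780. The 7 microglia markers summed to 1.17 to 10.1 CPM, and Cx3cr1 was at 0 reads in 11 libraries. The 8 markers of the oligodendrocyte lineage had reads in every library and summed to 466 to 1093 CPM. The labelled neurons were thus a mixed culture with astrocytes and cells of the oligodendrocyte lineage. A change in bulk RNA can come from fewer cells of a type or from less RNA per cell, which cannot be told apart here.

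With CBD, the zinc exporter gene Slc30a1 rose within 4 h, and the metallothionein genes Mt1 and Mt1-ps3 and the exporter gene Slc30a2 stood far above vehicle. All 4 were higher in every CBD library than in any EtOH library, by 2.26-fold for Slc30a1 and by 11.1- to 14.1-fold for the other 3. Slc30a1 passed the limma test without pairing the replicate numbers, and all 4 passed it with pairing. The paired fit called 330 of 14193 genes (2.33%). The other 6 members passed neither limma fit. DESeq2 without pairing also called 4 members.

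Slc30a1 encodes ZnT1, the main exporter of zinc across the cell surface. Its normalized counts (reads divided by a size factor per library, comparable within a pair of groups) were 1373, 1513 and 1426 in CBD replicates 1 to 3 and 674, 619 and 611 in EtOH. The lowest CBD library was above the highest EtOH library by more than the spread within either group. The log2 fold change (log2FC, on normalized counts plus 1) was 1.18 ± 0.071 (SE), adjusted p = 0.00339 by limma. It was the only gene called, at an adjusted p under 0.05, of 14193 tested (0.00705%). Without EtOH replicate 2, its adjusted p was 0.0520, and without any other single library it stayed under 0.05, with a log2FC of 1.14 to 1.22.

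Mt1 encodes the zinc buffer metallothionein 1. It had 2302, 6111 and 2563 normalized counts with CBD and 370.0, 362 and 171 with EtOH at 4 h. CBD replicate 2 was the highest and EtOH replicate 3 the lowest, and the groups did not overlap. The log2FC was 3.54 ± 0.42 (SE), adjusted p = 0.254. Fitted with a block for replicate number, its adjusted p was 4.25e-11. Within replicates, CBD over EtOH gave log2 ratios of 2.63, 4.07 and 3.90. Its copy Mt1-ps3 had 293, 920.1 and 343 with CBD and 49.2, 56.2 and 34.9 with EtOH, again without overlap. The log2FC of Mt1-ps3 was 3.27 ± 0.41 (SE), adjusted p = 0.265, and 9.18e-10 with the block.

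Slc30a2 encodes ZnT2, which loads zinc into vesicles and is best known for zinc secretion into milk. It had few reads in vehicle, with 12.9, 27.2 and 18.1 normalized counts in EtOH against 78.3, 412 and 333 in CBD. CBD replicate 1 was the lowest of its group by far but still above all EtOH libraries. The log2FC was 3.50 ± 0.60 (SE), adjusted p = 0.9997, and the adjusted p was 1.70e-08 with the block. Without CBD replicate 1, the log2FC was 4.25 and passed the unblocked test as well (adjusted p = 0.00847). Ordered by unadjusted p over all genes, Slc30a1, Mt1, Mt1-ps3 and Slc30a2 held ranks 1 to 4. The groups of 4.7% of all genes lay apart with CBD higher.

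Mtf1, the gene of the zinc sensor itself, had 462, 428 and 478 normalized counts with CBD and 493, 499 and 512 with EtOH. The CBD libraries lay below all EtOH libraries, as they did for 5.25% of genes, but the difference was small and missed the test (log2FC -0.14 ± 0.078 (SE), adjusted p = 0.9997). Mt3 encodes metallothionein 3, the form known from brain. It had 5182, 5952 and 2871 with CBD and 5005, 5348 and 3683 with EtOH, with overlapping groups and a 95% interval of the log2FC from -0.67 to 0.56, below that of Mt1 (2.57 to 4.51). For the vesicle exporter genes Slc30a3 and Slc30a4, the Slc30a9 gene of a mitochondrial transporter and Slc30a10, known for manganese export, the intervals were -0.39 to 0.32, -0.14 to 0.12, -0.21 to 0.068 and -0.16 to 0.26. Over the 10 members the median log2FC was 0.019, against -0.00066 over all genes.

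**Figure D2:**
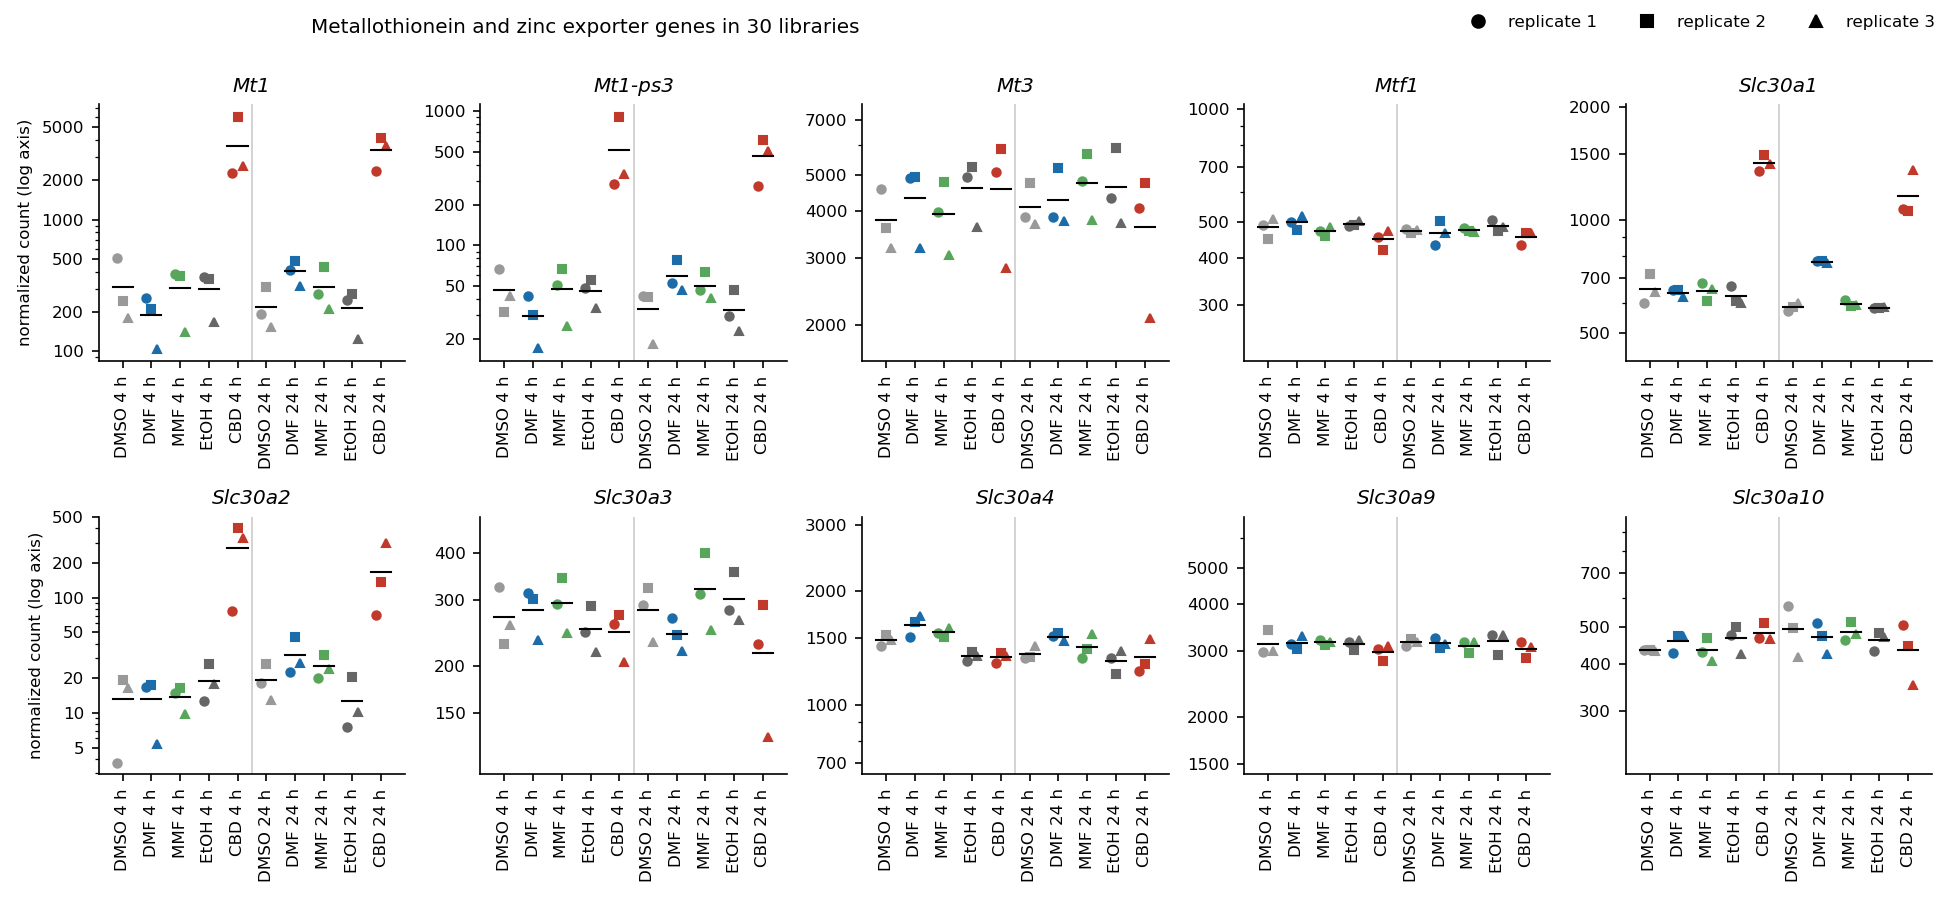
Normalized counts (log axis, scaled over all 30 libraries together) of the 10 members in the 10 groups, with circles, squares and triangles for replicates 1, 2 and 3 and a bar at each group mean. Mt1, Mt1-ps3, Slc30a1 and Slc30a2 are highest in the CBD groups at both times, Slc30a1 stands above vehicle with DMF at 24 h, and the other members overlap between most groups.

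After 24 h with CBD, the same 4 genes were again higher in all CBD libraries. Mt1, Mt1-ps3 and Slc30a1 rose by the test, by 15.8-, 13.9- and 1.98-fold. The groups of 7.35% of all genes lay apart with CBD higher. Slc30a2 was at 13.3 times its EtOH mean and passed the test only with the replicate block. Thus 3 of 10 members were called higher, where limma called 6 of 14079 genes higher (0.0426%).

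Mt1 had 2285, 4102 and 3533 normalized counts with CBD against 242, 266 and 122 with EtOH, with no overlap. Its log2FC was 4.01 ± 0.31 (SE), adjusted p = 0.0104, the smallest unadjusted p of all genes. The within-replicate log2 ratios were 3.24, 3.94 and 4.84, and the largest was that of replicate 3, whose EtOH library was the lowest. Mt1-ps3 had 270.4, 596 and 495 against 29.4, 45.8 and 22.6, with a log2FC of 3.74 ± 0.34 (SE), adjusted p = 0.0104. The Mt1 call was lost without EtOH replicate 1 or CBD replicate 2 (adjusted p up to 0.116), and that of Mt1-ps3 without either of them or EtOH replicate 3. Without any single library the log2FC of Mt1 lay between 3.66 and 4.25.

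Slc30a1 had 1046, 1037 and 1323 normalized counts with CBD and 571, 572 and 576 with EtOH at 24 h. The EtOH libraries were almost level and the CBD libraries all stood far above them, highest in replicate 3. The log2FC was 0.98 ± 0.11 (SE), adjusted p = 0.0277. The call was lost without CBD replicate 2 or any one of the 3 EtOH libraries, with adjusted p up to 0.235 and a log2FC from 0.86 to 1.04. Slc30a2 had 69.9, 134 and 291 against 7.35, 20.1 and 9.95, again without overlap. For Slc30a2 the log2FC was 3.50 ± 0.53 (SE), adjusted p = 0.0972, and the adjusted p 0.0152 with the block. It passed the unblocked test only when CBD replicate 1 was left out (adjusted p = 0.0162).

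Mt3 and Slc30a3 were not higher with CBD at 24 h. Mt3 had 4002, 4673 and 2039 normalized counts with CBD and 4254, 5800.1 and 3659 with EtOH. Slc30a3, the gene of the synaptic vesicle transporter ZnT3, had 223, 285 and 126 and 276, 349 and 259.6. In both genes the CBD value was the lower one in each replicate, most of all in replicate 3, but the groups overlapped and neither passed the test (log2FC -0.41 ± 0.30 (SE), adjusted p = 0.674 for Mt3 and -0.54 ± 0.28 (SE), adjusted p = 0.566 for Slc30a3). The 10 astrocyte markers summed to 5153, 4621 and 2348 CPM with CBD and 4917, 5152 and 3088 with EtOH, also lowest in CBD replicate 3, and 2 of the 10 neuron markers were called lower. The part of either in the Mt3 and Slc30a3 values was not tested. Mtf1 was again slightly lower in all CBD libraries (as were 8.59% of genes), at 426, 459 and 457 against 495, 465 and 477, and was not called (log2FC -0.10 ± 0.10 (SE), adjusted p = 0.750). Slc30a4, Slc30a9 and Slc30a10 overlapped between groups, with log2FCs of 0.025, -0.066 and -0.10. The median over the 10 members was -0.021, against -0.0047 over all genes.

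Set against 4 h, the effect of CBD at 24 h did not pass the test of the difference for any member. limma called 0 of 14503 genes (0%) in this contrast, with 626 at an unadjusted p under 0.05, and 0 members had an unadjusted p under 0.05. The difference was 0.47 for Mt1 on the log2 scale, with a 95% interval from -0.82 to 1.77. For Slc30a1 it was -0.20, from -0.49 to 0.085, and for Slc30a2 0.0027, from -1.96 to 1.97. These intervals leave room for a change of the effect with time, most of all for Slc30a2. The replicate block, edgeR and DESeq2 also called 0 members.

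**Figure D3:**
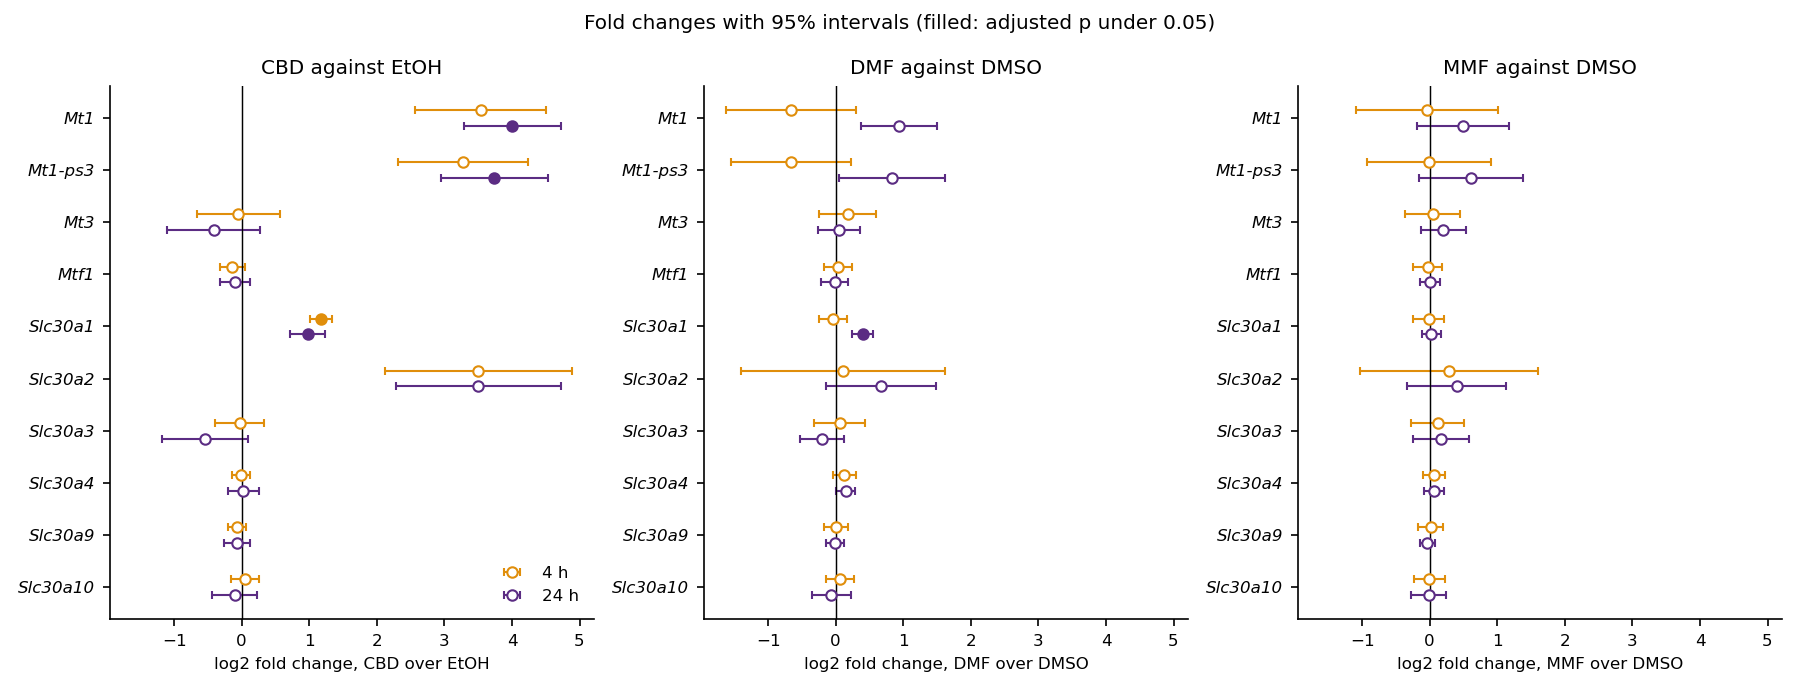
log2 fold change of each member for CBD over EtOH, DMF over DMSO and MMF over DMSO at 4 h (orange) and 24 h (purple), with 95% intervals from limma and filled points where the adjusted p was under 0.05. Filled points are Slc30a1 with CBD at both times and with DMF at 24 h, and Mt1 and Mt1-ps3 with CBD at 24 h.

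With DMF, the values of Mt1 and Mt1-ps3 lay on opposite sides of DMSO at the 2 times, while those of Mt3 overlapped DMSO at both. At 4 h Mt1 and Mt1-ps3 were lower in each replicate than with DMSO, and at 24 h they were higher in each. Slc30a1 overlapped DMSO at 4 h and rose by 1.32-fold at 24 h. No unblocked test passed at 4 h, where 0 of 10 members were called beside 485 of 14208 genes (3.41%).

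At 4 h, Mt1 had 261, 217 and 109 normalized counts with DMF and 529, 248 and 187 with DMSO. DMSO replicate 1 was far above the other libraries, and the groups overlapped. The log2FC was -0.66 ± 0.42 (SE), adjusted p = 0.437, with an adjusted p of 0.00315 once the replicate number was a block. That blocked fit called 23% of all genes. Mt1-ps3 had 42.9, 31.3 and 17.6 against 68.7, 32.7 and 43.3, with a log2FC of -0.66 ± 0.39 (SE), adjusted p = 0.396, and 0.0842 with the block. Slc30a1 had 667, 671 and 642 and 620.2, 745 and 668, with overlapping groups and a 95% interval of the log2FC from -0.24 to 0.17. Slc30a2, with single libraries between 3.82 and 19.9 normalized counts, had too few reads for a narrow interval (-1.40 to 1.61). By limma without the block, edgeR or DESeq2, 0 members passed, and 0 had an unadjusted p under 0.05 by limma.

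At 24 h, Slc30a1 was the one member called. It had 743, 741 and 734 normalized counts with DMF and 548, 561 and 573 with DMSO, and the gap between groups exceeded the spread within either. The log2FC was 0.40 ± 0.069 (SE), adjusted p = 0.0163, where 262 of 13967 genes were called higher (1.88%). The log2FC stayed between 0.38 and 0.41 when any one library was left out, but the call was lost without DMF replicate 2 or any one of the 3 DMSO libraries (adjusted p up to 0.104).

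Mt1 had 397, 465 and 301 with DMF and 183, 292 and 145 with DMSO at 24 h. All DMF libraries were above all DMSO libraries, though the lowest DMF value, in replicate 3, was close to the highest DMSO value, in replicate 2. The log2FC was 0.94 ± 0.25 (SE), adjusted p = 0.0788, and 0.000551 with the block. It passed without the block when DMSO replicate 2 or DMF replicate 3 was left out, with adjusted p down to 0.0233. Mt1-ps3 had 50.2, 73.9 and 44.8 against 40.3, 39.3 and 17.4, with a log2FC of 0.84 ± 0.35 (SE), adjusted p = 0.252, and 0.0448 with the block. The blocked fit at 24 h called 1803 of 13967 genes (12.9%).

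Of the other exporter genes, Slc30a4, which serves vesicles, had 1451, 1475 and 1408 with DMF and 1268, 1277 and 1361 with DMSO. Its groups lay apart, as they did with DMF higher in 11.3% of genes, but it was not called (log2FC 0.15 ± 0.062 (SE), adjusted p = 0.255). Slc30a2 was at 21.5, 43.5 and 25.8 against 17.4, 25.6 and 12.4, higher with DMF in each replicate with overlapping groups (log2FC 0.68 ± 0.36 (SE), adjusted p = 0.381). Mt3, Mtf1, Slc30a3, Slc30a9 and Slc30a10 had log2FCs of 0.054, -0.017, -0.20, -0.012 and -0.066, with overlapping groups in all 5. The median over the 10 members was 0.10, against -0.0065 over all genes.

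The change of the DMF effect between 4 and 24 h was itself called for Slc30a1, at 0.43 ± 0.10 (SE), adjusted p = 0.0382, where 258 of 14432 genes were called higher (1.79%). The call held with the replicate block and was lost, with an adjusted p up to 0.1003, in 11 of 12 fits that left out 1 library, the exception being DMSO at 4 h replicate 1. For Mt1 the difference was 1.60 ± 0.56 (SE), adjusted p = 0.128, and 0.00574 with the block. For Mt1-ps3 it had an adjusted p of 0.162, and 0.0290 with the block, which called 1897 of 14432 genes.

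The astrocyte marker Gfap lay on the same sides of DMSO as Mt1. It was not called without the block, and no blocked value is given for it or the other cell type markers. With DMF over DMSO its log2 ratios of CPM were -0.57, -0.19 and -0.69 at 4 h and 0.76, 0.72 and 0.85 at 24 h. The other 9 astrocyte markers together were lower in each replicate at 24 h, with log2 ratios of -0.0085, -0.15 and -0.38, and 1 of the 10 was called lower. In the same comparison 3 of 7 tested markers of the oligodendrocyte lineage were called lower. The part of these cells in the values of the members was not tested.

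With MMF, Mt1 was higher in each replicate at 24 h, but no member passed the unblocked test at either time. At 4 h, 0 of 10 members and 0 of 14032 genes (0%) were called by limma, with 36 genes at an unadjusted p under 0.05, and 0 members by edgeR and DESeq2. At 24 h, 0 members were called beside 1 of 14137 genes (0.00707%), and 0 members had an unadjusted p under 0.05 at either time. The change of the MMF effect with time was called for 0 members and 0 of 14413 genes (0%) by limma, edgeR called 0 members as well, and 0 members had an unadjusted p under 0.05.

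Mt1 had 276, 436 and 209 normalized counts with MMF at 24 h and 193, 307 and 153 with DMSO. MMF was the higher in each replicate, by log2 ratios of 0.52, 0.51 and 0.45, while the groups overlapped, with replicate 2 the highest in both. The log2FC was 0.49 ± 0.30 (SE), adjusted p = 0.952, with an adjusted p of 0.0118 in the blocked fit. At 4 h the same ratios were -0.41, 0.65 and -0.35, with no common direction. Slc30a1 had 613, 592 and 596 with MMF and 577, 589.8 and 602 with DMSO at 24 h. These groups overlapped, and the 95% interval of the log2FC ran from -0.11 to 0.16, below that of DMF (0.24 to 0.55), with which MMF shares its DMSO libraries. Mt3 was higher with MMF in each replicate at 24 h, at 4838, 5717 and 3804 against 3891, 4782 and 3712, and passed only in the blocked edgeR test (log2FC 0.21, adjusted p = 0.0443).

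DMF is the dimethyl ester of fumaric acid and MMF its monomethyl ester, so the 2 compounds differ by 1 methyl group. Both were given at 30 µM for the same times, and 20 pairs of values (10 members at 2 times) were compared. Slc30a1 was higher with DMF at 24 h. The other 19 comparisons did not pass the unblocked test, and their 95% intervals do not show that the compounds act alike.

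Slc30a1 had 821, 819 and 811 normalized counts with DMF and 647, 622 and 627 with MMF at 24 h, with no overlap, and 11.6% of genes lay apart with DMF higher. The log2FC of DMF over MMF was 0.37 ± 0.069 (SE), adjusted p = 0.0249, in a comparison where 204 of 14233 genes were called higher with DMF (1.43%). The log2FC lay between 0.36 and 0.39 without any one library, and the adjusted p passed 0.05 (up to 0.107) in 5 of these 6 fits, all but the one without DMF replicate 3. At 4 h its interval was -0.22 to 0.17, narrow around 0.

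Mt1 was lower with DMF than with MMF in each replicate at 4 h, at 258, 214 and 107 against 394, 386 and 145. The order turned at 24 h, when it had 438, 514 and 332 with DMF and 291, 458 and 219.7 with MMF, higher with DMF in each replicate. The groups overlapped at both times. The log2FC was -0.63 ± 0.44 (SE), adjusted p = 0.522 at 4 h, and 0.000583 with the block. At 24 h it was 0.45 ± 0.26 (SE), adjusted p = 0.421, and 0.0239 with the block. Of the 14200 genes tested at 4 h, 1.61% were called without the block, and 3347 genes were called with it. At 24 h the block called 1740 of 14233 genes. Mt1-ps3 was also lower with DMF in each replicate at 4 h (95% interval -1.64 to 0.34, adjusted p = 0.0581 with the block and 0.0467 in the blocked edgeR test). Slc30a3 was lower with DMF in each replicate at 24 h, at 282, 255 and 231 against 328, 421 and 263, with an interval from -0.76 to 0.012. The widest intervals at 24 h were those of Slc30a2 (-0.45 to 1.00), Mt1 (-0.13 to 1.04) and Mt1-ps3 (-0.36 to 0.81).

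**Figure D4:**
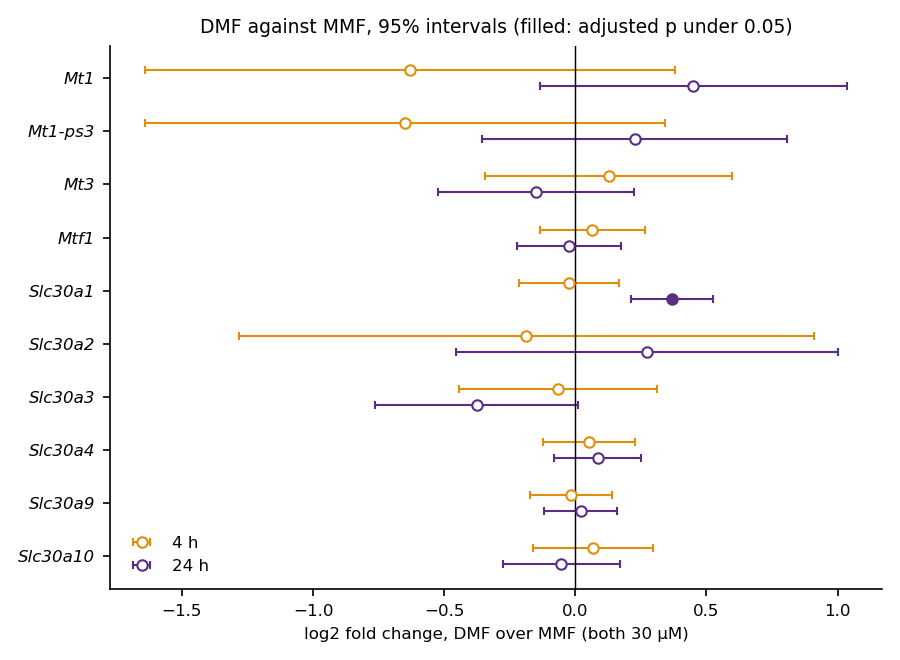
log2 fold change of DMF over MMF, both at 30 µM, for each member at 4 h (orange) and 24 h (purple), with 95% intervals from limma and filled points where the adjusted p was under 0.05. The filled point is Slc30a1 at 24 h, and the intervals of Mt1, Mt1-ps3 and Slc30a2 are the widest.

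The effect of CBD against EtOH on Slc30a1 and Mt1 was set against that of each fumarate against DMSO, with doses and vehicles that differ (6 µM against 30 µM). At 4 h the CBD effect minus the DMF effect was called for Slc30a1 (1.21 ± 0.11 (SE), adjusted p = 0.000693), Mt1 (4.20 ± 0.68 (SE), adjusted p = 0.0189) and Mt1-ps3 (3.93 ± 0.62 (SE), adjusted p = 0.0185), beside 0.52% of 14615 genes called higher. The calls of Mt1 and Mt1-ps3 were lost without EtOH replicate 1 (adjusted p = 0.0569 for both). Slc30a2 had a difference of 3.40 ± 0.98 (SE), adjusted p = 0.119, and 0.00557 with the block. In this contrast the block called 1527 of 14615 genes.

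At 24 h, Mt1 (3.06 ± 0.46 (SE), adjusted p = 0.0108) and Mt1-ps3 (2.90 ± 0.54 (SE), adjusted p = 0.0412) were called against DMF, beside 0.105% of 14313 genes called higher. The call of Mt1 held in all 12 fits that left out 1 library, and that of Mt1-ps3 in 4, lost without DMSO replicate 1 or 2, EtOH replicate 1 or 3, CBD replicate 2 or any DMF library (adjusted p up to 0.145). The difference for Slc30a1 was 0.58 ± 0.13 (SE), adjusted p = 0.0847 and 0.0231 with the block. Slc30a2 differed by 2.82 ± 0.70 (SE), adjusted p = 0.129, and 0.0229 with the block.

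Against MMF, Slc30a1 was called at 4 h (1.19 ± 0.12 (SE), adjusted p = 0.00407), as the single gene of 14426 (0.00693%), and in all 12 fits without 1 library. The block added Mt1 (adjusted p = 0.00554) and Mt1-ps3 (0.0358). At 24 h, Mt1 (3.52 ± 0.50 (SE), adjusted p = 0.0232) and Slc30a1 (0.95 ± 0.13 (SE), adjusted p = 0.0198) were called, beside 0.0207% of 14514 genes called higher. The block added Mt1-ps3 (0.00416) and Slc30a2 (0.0295). Leaving out 1 library kept the Mt1 call in 6 of 12 fits, lost without EtOH replicate 1 or 3, CBD replicate 2, MMF replicate 1, or DMSO replicate 1 or 2 (adjusted p up to 0.107). That of Slc30a1 was kept in 4 of 12, lost without any DMSO or EtOH library or MMF replicate 1 or 2 (adjusted p up to 0.0879).

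Ordered by mean on the scale of all 30 libraries, CBD at 4 h and CBD at 24 h led for Mt1, Mt1-ps3, Slc30a1 and Slc30a2, followed by DMF at 24 h in each. Slc30a1 was at 1417 ± 69.4 (SD, n = 3), 1159 ± 168 (SD, n = 3) and 774 ± 5.32 (SD, n = 3) in these 3 groups, and the other 7 groups lay between 584 and 654. Neighbours among those 7 did not differ beyond their spread. For Mt1, the 3 leading groups had 3606 ± 2093 (SD, n = 3), 3375 ± 946 (SD, n = 3) and 406 ± 86.4 (SD, n = 3), and the last, DMF at 4 h, had 189 ± 76.3 (SD, n = 3). The 2 CBD groups overlapped for Mt1 and did not differ beyond their spread.

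No member passed the test between vehicles. DMSO against EtOH gave 0 of 10 members called at 4 h and at 24 h, with 0% of 14088 and of 13989 genes called by limma and 534 and 626 genes at an unadjusted p under 0.05. By edgeR and DESeq2 0 members were called, and 0 had an unadjusted p under 0.05 by limma. The same was true of 24 against 4 h within each vehicle, apart from a lower Mt1 at 24 h in EtOH that passed only with the replicate block (log2FC -0.46, adjusted p = 0.0276).

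Replicate 3 stood apart for Mt1 with vehicle, and was low, with some overlap, for Mt1-ps3 and Mt3. Over its 4 vehicle libraries, Mt1 was at 124 to 179.6 normalized counts, against 191 to 512 in replicate 1 and 239 to 356 in replicate 2. In the same libraries Mt1-ps3 was at 18.2 to 41.6, against 30.0 to 66.5 and 31.6 to 55.2. Over all 10 libraries of each number, Mt3 was at 2086 to 3794 in replicate 3 and at 3865 to 5103 and 3626 to 5918 in replicates 1 and 2. Slc30a1 showed no such step, with 586 to 642 in the vehicle libraries of replicate 3 and 573 to 665 and 584 to 719 in the others. The summed astrocyte markers were 2263 to 3200.0 CPM in replicate 3, below the 3874 to 5224 and 4414 to 5780.4 CPM of replicates 1 and 2. With CBD, Mt1 in replicate 3 was within the range of replicates 1 and 2 at both times, and replicate 3 had the lowest astrocyte markers. The astrocyte markers at 4 h were 4385, 5562 and 2444 CPM with CBD and 4211, 5168 and 2611 CPM with EtOH. The part of the astrocyte markers in the metallothionein values, with vehicle or with CBD, was not tested.

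**Figure D5:**
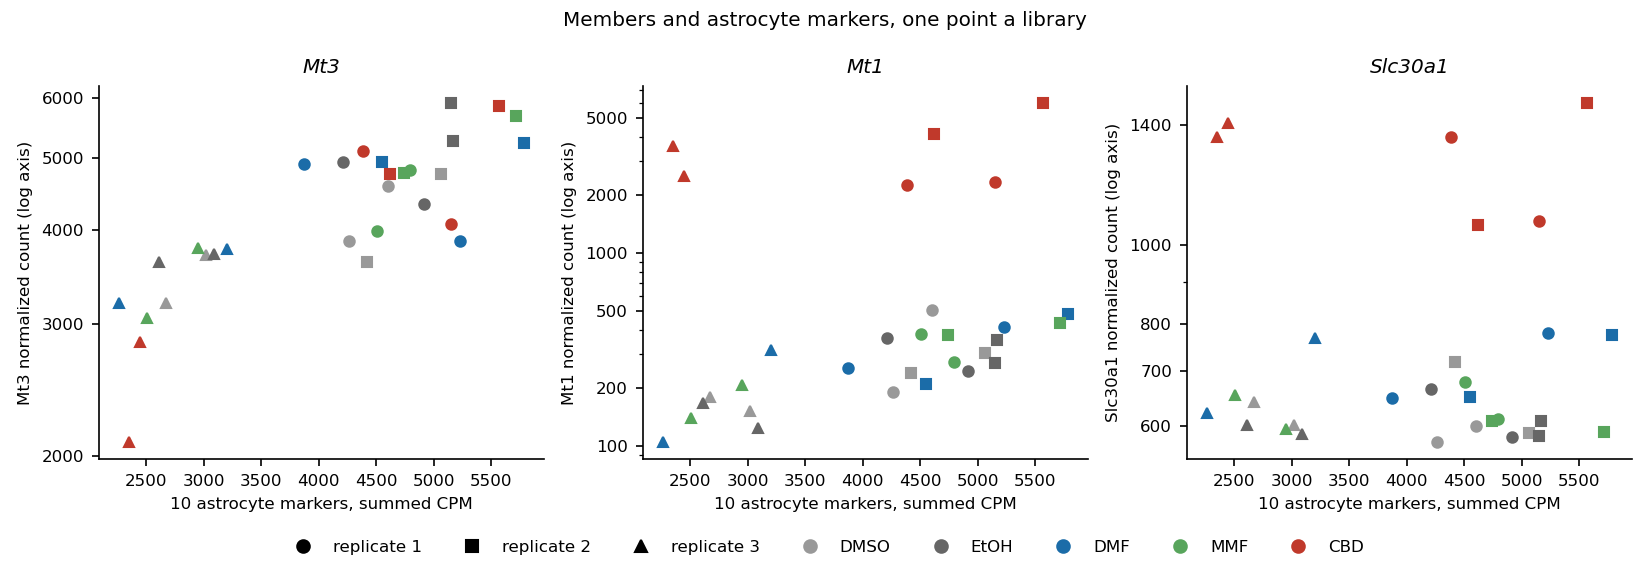
Normalized counts of Mt3, Mt1 and Slc30a1 (log axes, scaled over all 30 libraries) against the summed CPM of 10 astrocyte markers, 1 point for each library, with the marker shape giving the replicate number and the colour the treatment. Replicate 3 (triangles) has the lowest astrocyte sums and low Mt3, and the CBD libraries stand above the rest for Mt1 and Slc30a1.

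Among other genes of zinc handling, Mt2A rose and Slc39a10 fell with CBD at 24 h. Of 16 tested in the list of other zinc genes, 1 was called higher and 1 lower with CBD at 24 h (median log2FC of the list 0.061, against -0.0047 over all genes), and 0 at 4 h without the block. The higher one was Mt2A, the metallothionein gene between Mt1 and Mt3, at 5724, 7999 and 6074 against 1242, 1179 and 527 (log2FC 2.83 ± 0.30 (SE), adjusted p = 0.0213). The lower one was Slc39a10, the gene of the zinc importer ZIP10, at 753, 551 and 453 against 2241, 2100.2 and 2222 (log2FC -1.93 ± 0.17 (SE), adjusted p = 0.0104). Neither overlapped between groups. The call of Mt2A was lost without EtOH replicate 1 or 2 or CBD replicate 2 (adjusted p up to 0.152), and that of Slc39a10 without any one EtOH library or CBD replicate 2 (up to 0.116). With DMF at 24 h and no block, Slc39a10 was the one gene of this list called (log2FC -0.48 ± 0.088 (SE), adjusted p = 0.0217). This call was lost without any one DMSO library or DMF replicate 2 (adjusted p up to 0.123). With MMF 0 of 16 genes at 4 h and 0 of 17 at 24 h were called without the block.

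The replicate block changed calls of this list at both times. For CBD at 4 h it called Mt2A, at 3997, 8265 and 3391 against 1424, 1309 and 590.4 normalized counts (log2FC 2.22, adjusted p = 1.24e-09 with the block), and Slc39a10, at 1386, 665 and 694 against 1943, 1966 and 1858 (log2FC -1.16, adjusted p = 1.70e-05). Neither gene overlapped between these groups, Mt2A being the higher and Slc39a10 the lower with CBD. With DMF the blocked fit called Mt2A lower at 4 h (log2FC -0.63, adjusted p = 0.000307) and higher at 24 h (0.72, adjusted p = 0.000331), the sides of DMSO on which Mt1 lay. With MMF at 24 h it called Mt2A higher (0.66, adjusted p = 0.000208). In all, the blocked fit called 2 of 16 genes of the list with CBD at each time, 5 and 4 of 16 with DMF at 4 and 24 h, and 0 of 16 and 2 of 17 with MMF. Over all genes it called 2.33% and 0.504% with CBD, 23% and 12.9% with DMF, and 0% and 1.38% with MMF at the same times.

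Of 5 further genes listed here as targets of MTF1, 2 were called by limma, both with DMF, when no block was fitted. The 2 genes, Hmox1 and Gclc, are counted as Nrf2-related in the paper. Hmox1, the gene of heme oxygenase 1 and also a target of Nrf2, was called at 4 h (log2FC 3.92) and 24 h (3.09), and Gclc, a gene of glutathione synthesis, at 24 h (0.74). The block added Gclc with DMF at 4 h (0.67, adjusted p = 3.00e-05), and with MMF at 24 h Hmox1 (1.11, adjusted p = 4.56e-06) and Gclc (0.36, adjusted p = 0.00428). With CBD at 4 h it added Hmox1, at 434, 1017 and 875 against 303, 278 and 167 normalized counts (log2FC 1.59, adjusted p = 0.000115). At 24 h with CBD, Hmox1 was at 446, 5355 and 17648 against 328, 274 and 204. These CBD libraries all stood above EtOH but lay far from each other. The gene passed neither limma fit (log2FC 3.72 ± 1.10 (SE), adjusted p = 0.381, and 0.122 with the block). The paper, which used DESeq2, reports Hmox1 as strongly upregulated in this comparison. The block also called Selenoh lower with DMF at 24 h (log2FC -0.31, adjusted p = 0.0172). Without the block, 1 and 2 of the 5 genes were called with DMF at 4 and 24 h, beside 3.41% and 3.97% of all genes. The block called 2 higher at 4 h, and 2 higher and 1 lower at 24 h, beside 23% and 12.9%. It called 1 with CBD at 4 h and 2 with MMF at 24 h, beside 2.33% and 1.38% of all genes.

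Of 8 genes of copper handling, which metallothioneins also serve, 0 were called with any drug without the block. With it, Atp7a (log2FC 0.35, adjusted p = 0.0222) and Slc31a1 (log2FC 0.28, adjusted p = 0.00177) were called higher with DMF at 4 h. Atp7b was called lower with DMF at 24 h (log2FC -0.54, adjusted p = 0.0192) and higher with MMF at 24 h (log2FC 0.47, adjusted p = 0.0261). With CBD 0 of the 8 were called in the blocked fit at either time. For DMF it thus called 2 of 8 at 4 h and 1 of 8 at 24 h. Over all genes it called 23% and 12.9% there, near the shares in this list. With MMF at 24 h it called 1 of 8, beside 1.38% of all genes. Atp7a and Atp7b encode copper-exporting pumps, and Slc31a1 the copper importer CTR1. Selenoh and these copper genes are named for their blocked values, after those were seen.

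Over all 30 libraries, the genes whose log2 levels were most like Slc30a1 were Mt1, Mt1-ps3 and Slc30a2, with Pearson's r of 0.909, 0.902 and 0.887 among 14929 genes. Among genes that are no members, Mt2A (0.822), Neto2 (0.804), Xbp1 (0.791), Pawr (0.790) and Cnbp (0.786) followed. Those most like Mt1 were Mt2A (0.974), Pawr (0.857), Neto2 (0.847), Kat8 (0.829) and Csrp1 (0.816). Mt3, by contrast, had an r of 0.0507 to Mt1. The 30 points share groups and replicate numbers, and 6 of them are the CBD libraries, so these values are a description.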

How the data were processed

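Per the submitters' processing notes and the paper's methods, the authors removed adapters (Cutadapt 4.4) and low-quality ends (Trimmomatic 0.39). HISAT2 2.2.1 placed the reads on mRatBN7.2, HTSeq 2.0.3 counted them on Ensembl 111 genes, and DESeq2 1.40.2 compared pairs of groups. The strand setting is not given in the sources used here. The deposited signal values are normalized gene counts, which the authors scaled with the DESeq2 size factors of each table's 6 libraries. The authors' log2 fold changes, standard errors and p-values in these deposited tables were not used. Of the tables, 12 were used, and 7 were not. Whole reads were recovered for 100% of values (tolerance 0.001 reads).

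Groups were compared with limma 3.58.1 (empirical Bayes with trend, R 4.3.3) on log2(normalized count + 1), over genes kept by filterByExpr of edgeR 4.0.16. All 10 members were kept in each comparison. The Benjamini-Hochberg adjustment covered every gene in the fit, and a gene is called at an adjusted p under 0.05. Differences of effects were fitted as interactions on 12 libraries, on recovered reads divided by their median-ratio size factors. The unblocked fit was first tested on simulated counts with known changes. These counts held no likeness between libraries of the same replicate number, so that check does not cover such likeness.

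Libraries of the same replicate number deviated together, with correlations of 0.129 to 0.668 in all 12 comparisons of 2 groups, above the minimum of 0.1, and at most 0.185 between different numbers. Libraries were thus alike by number, though the labels do not say what a number stands for. The main test has no block, as no design formula is stated in the paper. It therefore leaves this likeness by number out, and a gene it does not call may still differ. Blocked limma values are given for members and for list genes named here where they change a call. The other alternatives were TMM scaling, DESeq2 1.42.0 and edgeR's quasi-likelihood test on recovered reads, no filter, a pseudocount of 0.1, a spread from all 30 libraries, and leaving out each library in turn. Members, lists of other zinc, MTF1 target, copper and cell type genes, and the rule for naming genes (all members, the list genes called with a drug, and the 5 genes most like Slc30a1 and Mt1) were chosen with earlier results of these data known.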

Additional observations from a re-analysis of the deposited data

Results flagged for a closer look

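For 3 members the effect of a drug differed between drugs or times by the test of that difference without the block. The CBD effect exceeded the DMF effect at 4 h by a log2 of 1.21 for Slc30a1, 4.20 for Mt1 and 3.93 for Mt1-ps3, and at 24 h by 3.06 for Mt1 and 2.90 for Mt1-ps3. It exceeded the MMF effect by 1.19 for Slc30a1 at 4 h, and at 24 h by 0.95 for Slc30a1 and 3.52 for Mt1. The DMF effect on Slc30a1 was larger at 24 h than at 4 h by 0.43. Several of these calls, this one most often, were lost when 1 library was left out. The block added further calls, among them Slc30a2 for CBD minus DMF at both times (adjusted p = 0.00557 and 0.0229). Those blocked fits called 1527 of 14615 genes at 4 h and 369 of 14313 at 24 h. The block also added Mt1 for the change of the DMF effect (adjusted p = 0.00574), where it called 1897 of 14432 genes. CBD and the fumarates differ in dose and in vehicle, which cannot be told apart from the drug in these differences.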

How the results depend on the processing

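The number of members called moved by over 1.5 times mainly with the replicate block. For CBD against EtOH at 4 h, 1 became 4 with DESeq2, with the replicate block in limma or edgeR, and with the spread of all 30 libraries. With the block in limma or edgeR, 0 became 1 for DMF against DMSO at 4 h and for EtOH at 24 against 4 h, 1 became 3 for DMF against DMSO at 24 h (2 with DESeq2) and for the change of the DMF effect with time, and 1 became 2 for DMF against MMF at 24 h. With the block, 0 became 1 in limma and 2 in edgeR for MMF against DMSO at 24 h and for DMF against MMF at 4 h. For CBD minus DMF at 24 h, 2 became 4 with DESeq2 or either block and 1 with no filter. For CBD minus MMF, 1 became 4 with DESeq2 and 3 with either block at 4 h, and 2 became 4 with all 3 at 24 h. In limma the block also changed calls among the other zinc, MTF1 target and copper genes, as given with them. Over all genes, the limma block called 330 of 14193 for CBD at 4 h and 195 of 14137 for MMF at 24 h. For DMF against DMSO it called 3274 of 14208 at 4 h and 1803 of 13967 at 24 h. For DMF against MMF these were 3347 of 14200 and 1740 of 14233. It called 1897 of 14432 for the change of the DMF effect and 148 of 14155 for EtOH over time. For CBD minus DMF it called 1527 of 14615 at 4 h and 369 of 14313 at 24 h, and for CBD minus MMF 4 of 14426 and 121 of 14514. Leaving out 1 library gave 0 to 2 members called for CBD against EtOH at 4 h and DMF against DMSO at 24 h, 0 to 4 for CBD against EtOH and CBD minus MMF at 24 h, 0 to 1 for DMF against MMF at 24 h and the change of the DMF effect, 1 to 3 for CBD minus DMF at both times, and 1 to 1 for CBD minus MMF at 4 h. Of 3080 values of single genes under the alternatives, 179 changed sign, 0 of them where the gene was called. The cause of these changes was not tested. Few reads limit Slc30a2, which had 4 to 427 per library.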
